A study of Rattus norvegicus with 10 samples.

Results

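Cytosolic ribosomal protein genes encode the protein components of the ribosome that translates mRNA in the cytoplasm. They were taken here as every symbol of the deposited expression table made of Rpl or Rps, a number and at most a closing a or x, together with Rplp0, Rplp1, Rplp2 and Rpsa, and leaving out Rpl3. This gave 70 of 19027 genes with a usable symbol, 40 of the large subunit and 30 of the small subunit. Some ribosomal protein symbols, such as Rpl10, Rpl26, Rpl38 and Rps28, were not among them, so the 70 do not cover the whole ribosome. Each of the 70 was represented by its brightest probe set, a group of short probes for the same transcript. The expression arrays measured the left lateral gastrocnemius, a calf muscle with fast and slow fibres, of male Sprague-Dawley rats, 5 aged and 5 young, a separate animal on each array. Aged rats were labelled as 24 months old and were 28 months old at necropsy, and young rats were labelled as 6 months old and were 7 months old at necropsy. The labels give no allele or agent for any animal, and the aged rats served to model sarcopenia, in which muscle wastes and weakens in old age. The question was which transcripts were higher or lower in aged than in young muscle.

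The ribosome is built from a small subunit, which reads the mRNA, and a large subunit, which joins amino acids. The proteins of both are needed in matched amounts, and their mRNAs are among the most abundant of any cell. Most of these mRNAs start with a short run of pyrimidines, the 5′ terminal oligopyrimidine tract, through which the mTORC1 kinase and the RNA-binding protein LARP1 control their translation. In muscle, ribosome content sets the capacity for protein synthesis and is known to rise during growth of the fibres.

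In aged muscle, 64 of the 70 genes were higher, 0 were lower and 6 did not pass the test (limma's moderated test on log2 intensity, adjusted p under 0.05 over all probe sets, n = 5 per group). At an unadjusted p under 0.05 the count of lower genes was also 0. Over all 19027 genes, 13.8% were higher and 8.7% lower by the same rule. The median log2 fold change, aged over young, was 0.45 for the ribosomal protein genes, a 1.36-fold difference, against -0.01 for all genes. Most changes were small, though not equal: the genes that rose did so by 1.15-fold to 1.91-fold, 14 of them by 1.5-fold or more. The middle part of the family, between the quartiles, lay between 0.35 and 0.56 on the log2 scale. In 62 genes the lowest aged animal lay above the highest young animal, against 10.6% of all genes. The members were chosen with results of these data known, so these counts are a description and carry no test of the family as a whole.

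**Figure D1:**
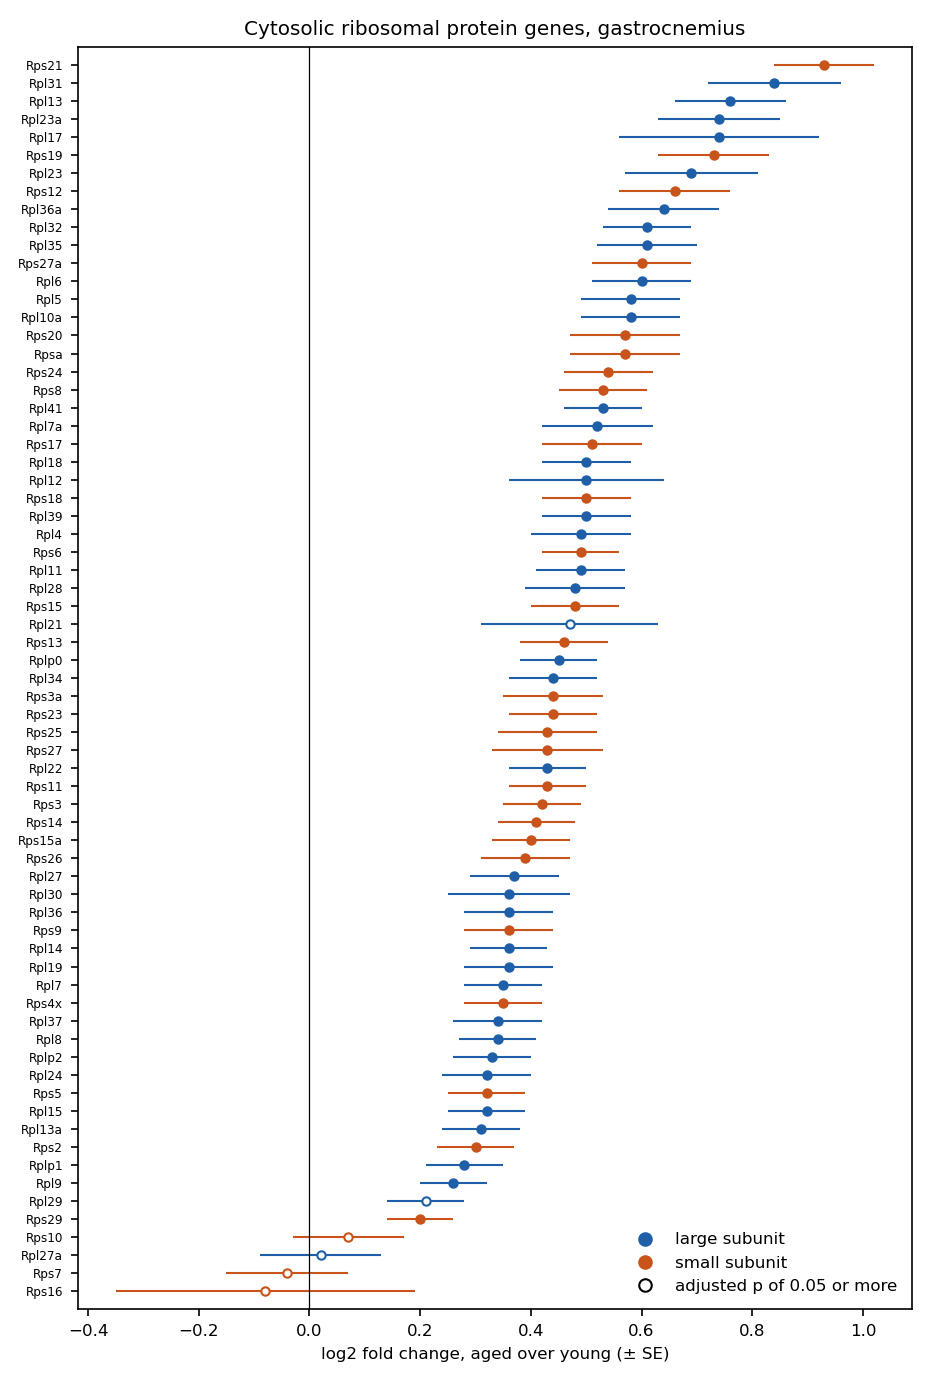
Log2 fold change, aged over young, of 69 of the 70 cytosolic ribosomal protein genes (rows, ordered by size), with limma's standard error as a bar; n = 5 per group. Filled points passed at an adjusted p under 0.05; 63 points are filled and all lie right of 0, while the 6 open points include both genes with a value under 0.

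The start of the gene is where the pyrimidine run known for this family lies, and its sequence is shown for the 3 largest increases that have a sequence and for 3 genes that did not pass. Promoter sequences were taken from RefSeq (assembly GRCr8), which held 56 entries for 55 of the 70 genes. Each window below runs from 10 bases before to 20 bases from the annotated start, 5′ to 3′ on the gene's strand, and capitals mark its longest run of C or T.
Rps21: agccaCTTCCTTTCTgtgttctccgtagac
Rpl31: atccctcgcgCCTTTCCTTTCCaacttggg
Rpl13: cggtgcccgaTCCTTTCCgctcggccgttc
Rps10: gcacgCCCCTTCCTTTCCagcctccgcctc
Rpl29: TTTCTCTTTCTCTTCCggtcccaggcgctg
Rps16: aaaatcggtcggggtggccccaagCTTTCC
These windows are chr3:187724028-187724057 (plus strand) for Rps21, chr9:49143101-49143130 (plus) for Rpl31, chr19:68062504-68062533 (plus) for Rpl13, chr20:5700725-5700754 (minus) for Rps10, chr8:115947633-115947662 (plus) for Rpl29 and chr1:92770648-92770677 (plus) for Rps16. The longest run in the window of Rps16 had 6 bases and reached its last base, so its full length was not seen. Rps16 was counted as having no run in the window, which does not show that its mRNA lacks one. A run of at least 7 pyrimidines was present in 39 of the 56 windows (69.6%), against 17% of all 33469 promoter windows of the same length. The pyrimidine run was thus present in a gene that rose most, such as Rpl31, and in Rps10, which did not pass. The median log2 fold change was 0.44 for the 39 genes with the run and 0.50 for the 16 without it in the window. This split depends on the annotated start and on the edges of the window.

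Across the full promoter windows of 300 bases, 250 before and 50 from the start, CTTTCC or its reverse complement GGAAAG stood in 27 of 56 entries (48.2%), against 26.4% of all promoters. The letters CCGGAAG or CTTCCGG, part of the site of the factor GABP, stood in 18 (32.1%, against 8.75%), and AAGATGGC or GCCATCTT, part of the YY1 site, in 4 (7.14%, against 3.17%). GGGCGG or CCGCCC, the core of the Sp1 site, stood in 34 (60.7%, against 33.1%). These searches can overlap in the same stretch, and a match in letters was not tested as a binding site. The 55 genes with an entry lay on 17 chromosomes.

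The medians of large and small subunit genes lay close together, a difference that was not tested. Of the 40 large subunit genes 37 rose and 3 did not pass, with a median log2 fold change of 0.48, and of the 30 small subunit genes 27 rose and 3 did not pass, with a median of 0.44. The spread among genes was wider than this difference of 0.04, with an SD of 0.17 across large and of 0.20 across small subunit genes. In each animal the mean log2 intensity of the family was set against its mean over young animals. For large subunit genes this shift was 0.23, 0.57, 0.42, 0.51 and 0.61 in aged replicates 1 to 5, against -0.02, -0.05, 0.02, -0.01 and 0.05 in young replicates 1 to 5. For small subunit genes it was 0.24, 0.51, 0.43, 0.41 and 0.56 in the aged animals, against -0.02, -0.02, 0.01, -0.04 and 0.07 in the young. Every aged animal lay above every young animal for both subunits. The large minus small difference in shift averaged 0.04 ± 0.05 in aged and 0.00 ± 0.02 in young animals (SD, n = 5 each), and the groups overlapped, from -0.01 to 0.11 in aged and from -0.02 to 0.02 in young animals. Without the 2 aged arrays that the deposited table names as replacements, equal in value to aged replicates 4 and 5, the difference of medians was -0.01. It was 0.00 without aged replicate 4 alone and 0.02 without aged replicate 2 or young replicate 3.

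**Figure D2:**
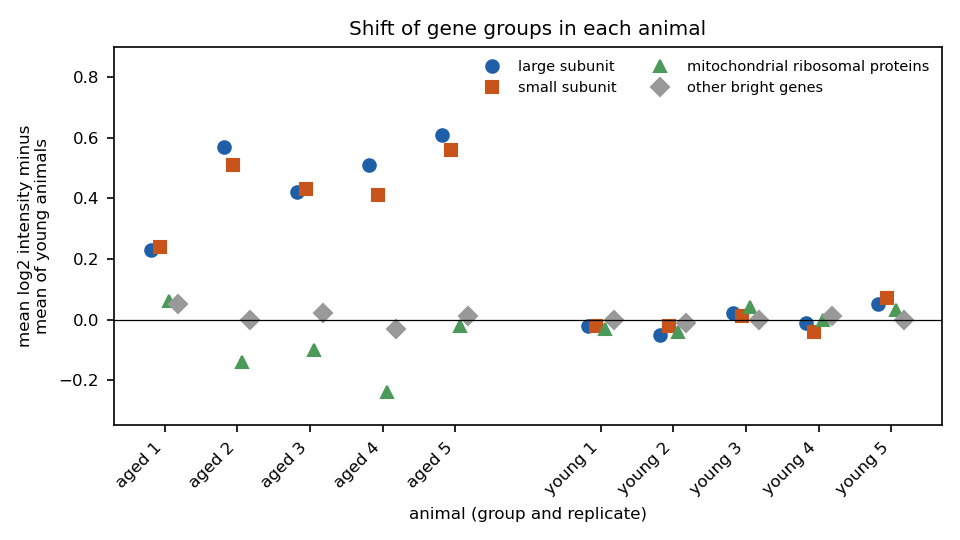
Mean log2 intensity of 4 gene groups in each animal, minus the mean of the 5 young animals (vertical axis), for aged replicates 1 to 5 and then young replicates 1 to 5 (horizontal axis; points are offset sideways within an animal). Large and small subunit genes lie together in each animal and reach 0.23 to 0.61 in aged animals, while the 965 other bright genes stay between -0.03 and 0.05.

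Aged replicate 1 had the smallest rise, 0.24 over the whole family, against 0.42 to 0.59 in the other aged animals and -0.04 to 0.06 in young animals. It was the lowest aged animal for 60 of the 70 genes and the highest for 0. Aged replicate 5 was the highest aged animal for 39 genes and aged replicate 2 for 22. Animals of the aged group differed more among themselves than young ones. The median SD of log2 intensity was 0.15 in aged and 0.07 in young animals, against 0.15 and 0.13 over all genes. Of the 70 genes, 66 had the larger SD in the aged group, against 63% of all genes. Without aged replicate 1, 65 genes rose, 63 of them among the 64, and the median log2 fold change was 0.51. Without both replacement arrays 53 genes rose, all of them among the 64, with a median of 0.41.

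Among the largest increases were several proteins around the exit tunnel, through which the new peptide chain leaves the large subunit. The probe set of Rpl31, at the rim of the tunnel, was among the 5 dimmest of the family, at a mean log2 intensity of 5.55. Rpl31 had an intensity of 47, 67.3, 63.4, 62.7 and 77 in aged animals, against 40.2, 34.1, 35.4, 36.5 and 29.9 in young animals. All aged values lay above all young values, a 1.79-fold difference (log2 fold change 0.84 ± 0.12 SE, limma, adjusted p = 0.00056, n = 5 per group). Rpl23a, next to the tunnel exit, where chaperones and the signal recognition particle dock, had 811, 1004, 1007, 857 and 1097 in aged animals, against 598, 452, 583, 550 and 692 in young animals, and rose 1.67-fold (adjusted p = 0.000934, limma). Rpl17, which lines the tunnel, had 1438, 1665, 1623, 3424 and 2009 in aged animals, against 1074, 1137, 1251, 1197 and 1141 in young animals. Aged replicate 4 stood far above the other aged animals for Rpl17, and without it the log2 fold change was 0.53 in place of 0.74, still passing (limma, adjusted p = 0.00274 without it and 0.0155 with it). The other tunnel proteins Rpl35, Rpl39, Rpl4 and Rpl19 rose 1.52-fold, 1.41-fold, 1.41-fold and 1.28-fold. All 7 genes assigned to the tunnel, a grouping made after the values were seen, thus rose, with a median log2 fold change of 0.61. This stands beside 91.4% of the whole family, and the difference was not tested.

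Other large subunit genes among the 10 largest increases were Rpl13, Rpl23 and Rpl36a. Rpl13, a protein on the outer face of the large subunit, had an intensity of 3582, 4704, 4630, 4981 and 5015 in aged animals, against 2672, 2365, 2689, 2730 and 3010 in young animals, and rose 1.69-fold (log2 fold change 0.76 ± 0.10 SE, limma, adjusted p = 0.000315). Aged replicate 1 lay well below the other aged animals for Rpl13, while the groups did not overlap. Rpl23, which lies at the interface of the subunits and binds the anti-association factor eIF6, had 459, 578, 488, 513 and 750 in aged animals, against 325, 313, 353, 333 and 378 in young animals, and rose 1.62-fold. Rpl36a, close to the exit site for tRNA, rose 1.56-fold. The largest adjusted p of these was 0.00165 (limma).

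The acidic stalk, which recruits the translation factors that hydrolyse GTP, had 4 of 4 genes higher, against 91.4% of the family, and a median log2 fold change of 0.39. The grouping was made after the values were seen. Rplp0, the base of the stalk and a frequent reference gene in PCR, had an intensity of 7580, 9195, 8817, 9106 and 9470 in aged animals, against 6383, 6566, 6550, 6295 and 6441 in young animals. The groups did not overlap, and Rplp0 rose 1.37-fold (log2 fold change 0.45 ± 0.07 SE, limma, adjusted p = 0.00102). The stalk proteins Rplp1 and Rplp2 rose 1.22-fold and 1.26-fold, and Rpl12, which binds at the base, rose 1.42-fold with overlap between the groups. With the mean over its probe sets, Rplp2 had a log2 fold change of 0.16 in place of 0.33 and did not pass (limma, adjusted p = 0.0933). The call of Rpl12 was lost without aged replicate 2, 4 or 5 or without young replicate 1, 2, 3 or 4. Rpl5 and Rpl11, which enter the ribosome together with the 5S RNA and, when free, bind the p53 inhibitor MDM2, rose 1.5-fold and 1.4-fold. Rpl10a, which forms the mobile stalk at the tRNA exit site, had 1940, 2754, 2467, 2510 and 2650 in aged animals, against 1640, 1624, 1596, 1663 and 1680 in young animals, and rose 1.49-fold (adjusted p = 0.000884, limma). Rpl41, the shortest protein of the ribosome, had 14123, 16669, 16590, 15978 and 17856 in aged animals, against 11099, 11064, 12011, 10889 and 11138 in young animals, and rose 1.44-fold.

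On the small subunit, Rps21 showed the largest increase of the whole family. This protein of the small subunit of eukaryotic ribosomes had an intensity of 1651, 2164, 2211, 1959 and 2365 in aged animals, against 1156, 1003, 1080, 1085 and 1068 in young animals. The lowest aged value was well above the highest young one, and the difference was 1.91-fold (log2 fold change 0.93 ± 0.09 SE, limma, adjusted p = 5.61e-05, n = 5 per group). Rps19, the gene most often mutated in Diamond-Blackfan anaemia in humans, had 703, 971, 912, 977 and 1020 in aged animals, against 549, 513, 551, 531 and 605 in young animals. It rose 1.66-fold (adjusted p = 0.000402, limma). Rps12, in the beak of the subunit, had 6410, 10080, 8521, 8031 and 9111 in aged animals, against 5640, 5415, 5030, 5195 and 5067 in young animals, and rose 1.58-fold. Of 14 family members listed here as mutated in Diamond-Blackfan anaemia in humans, 12 rose and 2 did not pass (85.7% higher, against 91.4% of the family). Their median log2 fold change was 0.49, and the list need not be complete. This grouping was also made after the values were seen.

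Rps6, Rpsa and Rps27a, whose proteins have further roles, rose by 0.49, 0.57 and 0.60 on the log2 scale. Rps6, the substrate of the S6 kinases downstream of mTORC1, had an intensity of 5580, 6613, 6349, 6603 and 7063 in aged animals, against 4350, 4641, 4779, 4524 and 4616 in young animals, and rose 1.40-fold (log2 fold change 0.49 ± 0.07 SE, limma, adjusted p = 0.000711). Rpsa, which is also known as the laminin receptor, had 5041, 7165, 6295, 6966 and 7401 in aged animals, against 4353, 4578, 4273, 4272 and 4519 in young animals, and rose 1.48-fold. Rps27a, made as a fusion with ubiquitin, had 1717, 1987, 1913, 1839 and 2470 in aged animals, against 1239, 1269, 1457, 1285 and 1262 in young animals, and rose 1.52-fold. The groups did not overlap for any of these 3 genes. Rps2 and Rps3, at the entry of the mRNA channel, rose 1.23-fold and 1.34-fold, Rps4x rose 1.27-fold, and Rps23, a protein of the decoding centre with a dim probe set, rose 1.35-fold.

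**Figure D3:**
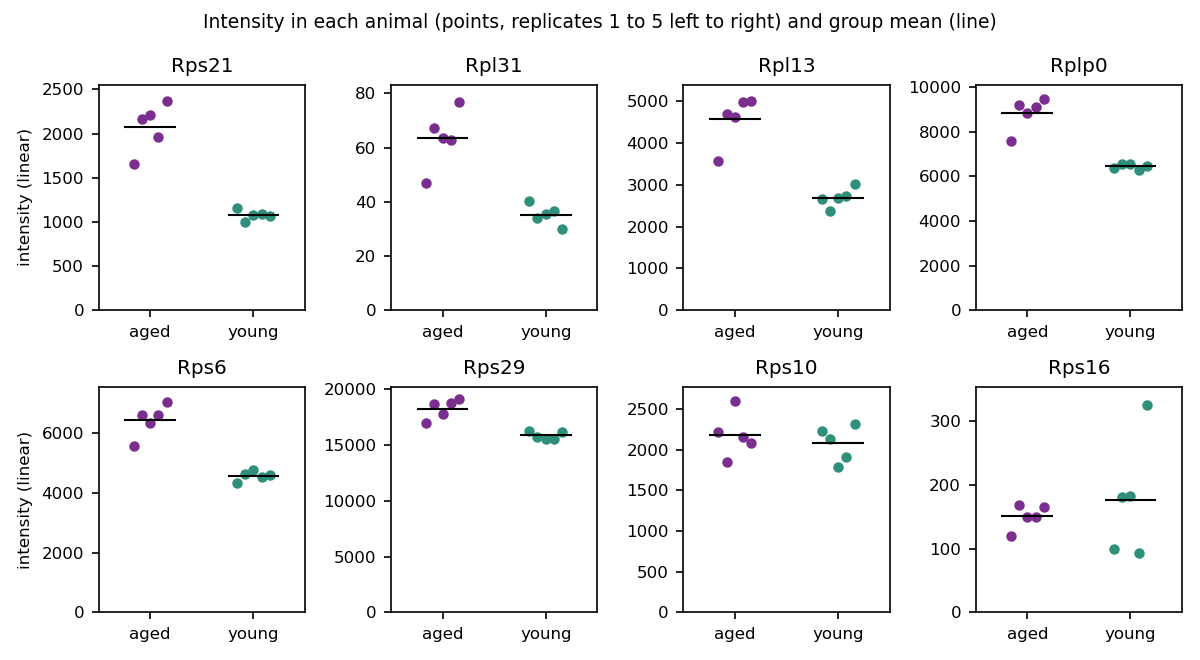
Linear intensity in each animal (points) and group mean (line) for 8 ribosomal protein genes, aged left of young, each panel with its own axis from 0. Rps21, Rpl31, Rpl13, Rplp0, Rps6 and Rps29 show no overlap between the groups, while Rps10 and Rps16 overlap.

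The 6 genes that did not pass were Rpl21, Rpl29, Rps10, Rpl27a, Rps7 and Rps16. Rpl29 had an intensity of 3925, 4627, 4486, 4587 and 4510 in aged animals, against 3804, 3823, 3837, 3686 and 3992 in young animals, and just missed the threshold (log2 fold change 0.21 ± 0.07 SE, limma, adjusted p = 0.0503). Without aged replicate 1 it passed (limma, adjusted p = 0.0147). Rps10, which is mutated in Diamond-Blackfan anaemia in humans, had 2222, 1849, 2600, 2157 and 2078 in aged animals, against 2229, 2135, 1791, 1914 and 2312 in young animals. The groups ran through each other for Rps10, with a log2 fold change of 0.07 ± 0.10 SE (limma, adjusted p = 0.705), although its probe set was bright.

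The other 4 genes that did not pass had probe sets below a log2 intensity of 10. Rpl21 had 94.7, 164, 93.8, 117 and 118 in aged animals, against 79.4, 75.3, 80.6, 68.6 and 118 in young animals, where young replicate 5 reached the aged range. It passed without young replicate 5 (limma, adjusted p = 0.0186) and without aged replicate 1 (adjusted p = 0.0416). Rps16 had 119, 168, 150, 150 and 165 in aged animals, against 98.9, 181, 182, 93 and 325 in young animals, so that the young animals spanned the aged ones (log2 fold change -0.08 ± 0.27 SE, limma, adjusted p = 0.886). Rps7, at 20.3 to 27.7 in aged and 20.8 to 31.6 in young animals, and Rpl27a, at 8.76 to 12.4 in aged and 9 to 12.4 in young animals, were the dimmest of the family. The mean of Rpl27a, a log2 intensity of 3.36, lay below the lowest median of any array, 3.75, and no measure of detection came with the values. How bright a probe set is depends on its probes as well as on its transcript, so its brightness does not rank the genes by abundance.

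At the other end, Rps29, a zinc-binding protein of the small subunit head, had the brightest probe set. It had an intensity of 16993, 18690, 17787, 18814 and 19102 in aged animals, against 16307, 15760, 15589, 15577 and 16196 in young animals. The groups did not overlap, yet the difference was only 1.15-fold (log2 fold change 0.20 ± 0.06 SE, limma, adjusted p = 0.0405). Its call was lost without any single array other than aged replicate 1, at adjusted p-values from 0.0574 to 0.0929 (limma). Across the 70 genes, which are not independent of each other and share all arrays, the log2 fold change and the mean log2 intensity had a Spearman rho of -0.24, and of -0.29 over the 59 genes at or above a log2 intensity of 10. Rpl30, which rose 1.29-fold (limma, adjusted p = 0.0441) with overlap between the groups, lost its call without aged replicate 1, 2 or 5 and without any single young array.

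**Figure D4:**
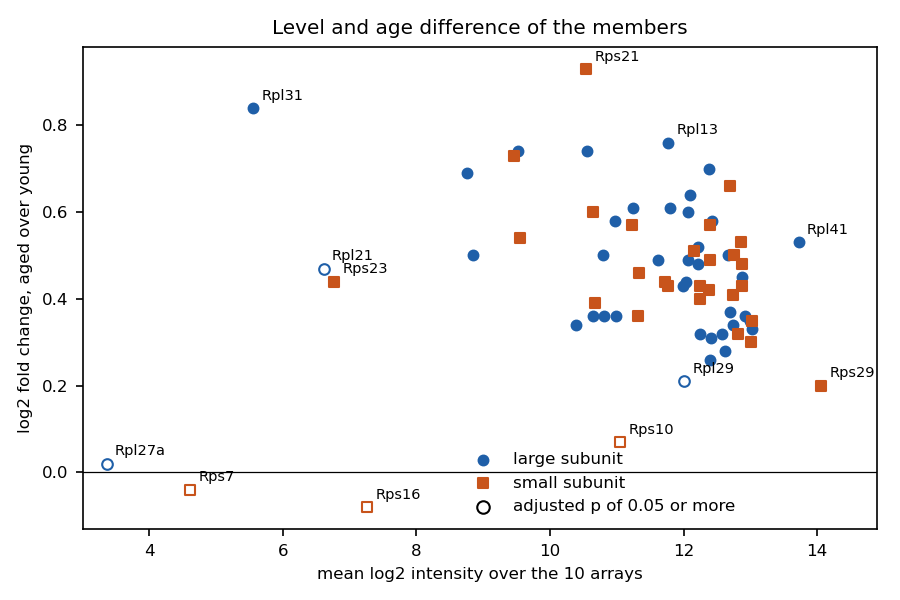
Log2 fold change, aged over young (vertical axis), against the mean log2 intensity over the 10 arrays (horizontal axis) of the 70 genes. Circles are large and squares small subunit genes, and open symbols did not pass; 4 of the 6 open symbols lie below a log2 intensity of 10.

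To see which genes departed from the family, each array was centred on the median of the 70 members and refitted, a choice made after seeing the data. Relative to the family, 6 genes were higher (Rps21, Rpl31, Rpl13, Rpl23a and Rps19 among them) and 7 lower (Rpl9, Rpl29, Rps29, Rps10, Rpl27a, Rps7 and Rps16) at an adjusted p under 0.05 in limma. Of all genes, 3.54% were higher and 79.6% lower by this rule, since the centring moved the median of all probe sets by -0.48. A flat signal thus also counts as lower. With so many genes passing, the adjustment was mild, and this threshold was easier to reach than in the main fit. Rpl9 passed here at -0.22 ± 0.09 (limma, adjusted p = 0.0346), whereas Rpl29 missed in the main fit at 0.21 ± 0.07 (limma, adjusted p = 0.0503). The reference was also made from these same genes. Rpl27a and Rps7 had the dimmest probe sets of the family, at mean log2 intensities of 3.36 and 4.61. Rps21 stood 0.45 ± 0.10 above the family on the log2 scale (adjusted p = 0.000414) and Rps10 0.41 below it, at -0.41 (adjusted p = 0.00738). A value relative to the family shows unequal change and does not say which transcript was unchanged. Without aged replicate 1, 11 genes were lower relative to the family.

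Ribosomal protein genes have many processed pseudogenes, and probe sets can share probes with them. Names of 38 of the 70 brightest probe sets ended in _x_at and of 10 in _s_at, which on Affymetrix arrays mark probes that may match other sequences; the labels do not say whether the names follow this rule here. The median log2 fold change was 0.44 for the 38, 0.43 for the 10 and 0.49 for the 17 with a plain ending, of which 15 rose. Of the 70 accessions, 57 carried the same symbol in RefSeq, 12 had no match, and that of Rpl37 now belongs to its near-copy Rpl37l1. A further 12 probe sets covered 11 of the genes, 10 of them more than 4 log2 units dimmer than the brightest. Of these 12, 3 were higher (for Rpl13a, Rpl15 and Rpl34), 1 was lower and 8 did not pass. The lower one, of Rpl22, had a log2 fold change of -0.32 ± 0.07 SE at a mean log2 intensity of 3.35, below the lowest array median, while its brightest probe set, at 11.99, had 0.43 ± 0.07 (limma, adjusted p = 0.0106 and 0.00158). With the mean over all probe sets of a gene, 62 of the 70 genes rose, 60 of them among the 64, with a median of 0.44. Rpl22, Rpl24, Rpl7a and Rplp2 lost their calls in this setting, and Rpl21 and Rpl29 gained one.

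Other bright genes did not share the shift. Of the 965 other genes at or above a log2 intensity of 10, 22.6% rose and 26.2% fell, with a median log2 fold change of -0.02, against 57 of 59 members in that range that rose. Mitochondrial ribosomal proteins, which build the separate ribosome inside mitochondria, went the other way in part. Of 68, 3 rose and 16 fell (4.41% and 23.5%, against 13.8% and 8.7% of all genes), with a median of -0.13. In the animals their shift was 0.06, -0.14, -0.10, -0.24 and -0.02 in aged replicates 1 to 5, against -0.04 to 0.04 in young animals, with overlap between the groups. The largest changes among them were in Mrpl43, at 62.8 to 955 in aged and 55 to 83.7 in young animals (log2 fold change 2.43 ± 0.53 SE, limma, adjusted p = 0.0077, with overlap), in Mrpl45, which rose 1.71-fold, and in Mrpl42, which fell with a log2 fold change of -0.66 and with overlap. The difference between cytosolic and mitochondrial ribosomal protein genes was not tested.

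**Figure D5:**
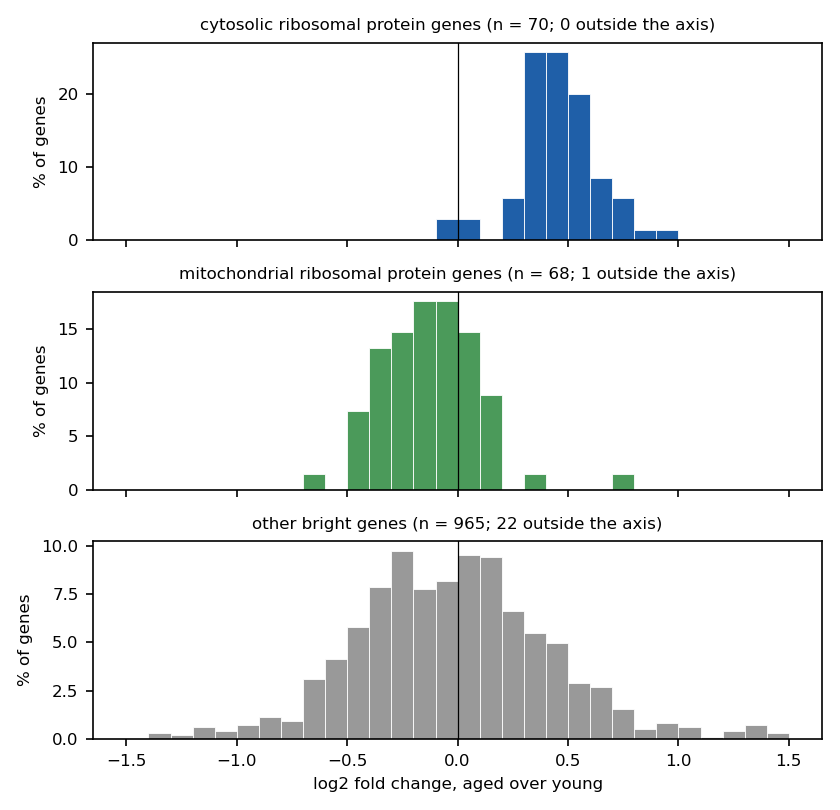
Share of genes (vertical axis, percent) in bins of 0.1 of the log2 fold change, aged over young (horizontal axis), for 70 cytosolic ribosomal protein genes, 68 mitochondrial ribosomal protein genes and 965 other genes with a mean log2 intensity of 10 or more. The cytosolic family lies mostly between 0.2 and 0.8 with no counterpart to the left of -0.1, the mitochondrial one centres on a median of -0.13, and the other bright genes spread to both sides of 0. Outside the axis lie 1 mitochondrial and 22 other bright genes.

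Genes that make or complete the ribosome rose in part, with 0 lower at an adjusted p under 0.05 in limma in any of these lists. Over all genes, 13.8% were higher and 8.7% lower by this rule. At the latter share a short list can hold 0 lower genes without any shift, and no list was tested as a whole. Of 15 genes of RNA polymerase I, which transcribes ribosomal RNA, and its factors, 6 rose (40%) and 9 did not pass, with a median log2 fold change of 0.16. Polr1d, a subunit shared with RNA polymerase III, rose 1.96-fold (limma, adjusted p = 0.00021), Taf1d, of the promoter selectivity factor, 1.97-fold and the subunit Polr1e 1.75-fold, while Ubtf (log2 fold change -0.05) and Rrn3 (0.02) did not pass. Of 49 measured genes of ribosome assembly, 23 rose (46.9%) and 26 did not pass, with a median of 0.28. Npm1, a nucleolar chaperone, rose 1.75-fold and Ltv1, an assembly factor of the small subunit, 1.62-fold. The helicase Ddx10 passed (limma, adjusted p = 0.00667) at an intensity of 8.73 to 32 in aged and 6.25 to 7.4 in young animals; the young values lay below every array median, so no fold is given. Among 6 measured paralogues, fusion proteins and ribosome-bound proteins 4 rose, including Rps27l, a paralogue of Rps27 that p53 can induce (1.80-fold), Fau, which encodes Rps30 fused to a ubiquitin-like protein (1.33-fold), and the scaffold Rack1 (1.28-fold).

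Other mRNAs known to start with the pyrimidine tract also rose in part. Of 18, 13 were higher (72.2%, against 13.8% of all genes) and 5 did not pass, with a median log2 fold change of 0.38. Eef1a1, the elongation factor that brings tRNA to the ribosome, rose 2.63-fold (log2 fold change 1.40 ± 0.13 SE, limma, adjusted p = 4.01e-05), Nap1l1, a histone chaperone, 1.90-fold and Pabpc1, the poly(A)-binding protein, 1.79-fold. Tpt1, another abundant mRNA of this class, did not pass (0.07 ± 0.06, adjusted p = 0.437). Fau, Rack1 and Npm1 are among the genes that belong to this list and to another above. Of 13 measured genes listed for the control of ribosomal protein synthesis 4 rose (30.8%, against 13.8% of all genes) and 9 did not pass. The list and the count of 4 include Mdm2, named above only as the p53 inhibitor that free Rpl5 and Rpl11 bind. Myc, a transcription factor that drives ribosome production, had a mean intensity of 128 in aged and 42.3 in young animals and rose 2.99-fold (log2 fold change 1.58 ± 0.14 SE, limma, adjusted p = 3.62e-05). Its partner Max rose 1.52-fold and Mdm2 1.6-fold, whereas Larp1 (log2 fold change -0.10), Mtor (0.23) and Rps6kb1 (0.09) did not pass.

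The tissue label was checked against marker genes. The 10 skeletal muscle markers summed to an intensity of 147042 to 154855 in aged and 145698 to 151998 in young animals, with 1 marker higher and 1 lower. Of 6 macrophage markers 4 rose, against 13.8% of all genes. The sum of the 6 was 952 to 1826 in aged and 404 to 857 in young animals, without overlap. Aged replicate 1, which had the smallest ribosomal protein shift, had the highest macrophage sum, 1826. The same animal had the lowest aged sum for markers of muscle fibres (147042), fibroblasts (5903), Schwann cells (225) and satellite cells (148). For the remaining types its sum lay between those of other aged animals. For markers of lymphocytes, endothelium, fibroblasts, Schwann cells, fat cells, satellite cells and red blood cells the sums overlapped between the groups, with 1 fibroblast and 1 satellite cell marker higher. Fat cell markers, of which 0 of 3 passed, summed to 279 to 855 in aged and 121 to 346 in young animals. Their median log2 fold change was 0.81, against 0.86 for macrophage markers. The part of these cells in the ribosomal protein result was not tested, and in whole muscle a change in the number of cells of a type and a change in RNA per cell cannot be told apart. The median intensity of an array was 13.46 to 13.74 in the aged group, against 13.79 to 13.99 in the young group.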

How the data were processed

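Linear intensity per probe set was deposited, which the authors made with RMA (version and settings not given), per the submitters' processing notes. RMA brings the arrays to a common distribution, which hides any change that nearly all transcripts have in common. A deposited table gave symbols and age groups for 43686 probe sets, and a second held the same intensities for 43685 of them with replicate numbers, and all 10 columns matched between both. Intensities were log2-transformed with no pseudocount and no filter. They were fitted with limma 3.58.1 in R 4.3.3 (lmFit, eBayes, two-sided, aged minus young), with Benjamini-Hochberg adjustment over all probe sets and a threshold of 0.05. The fit was tried on simulated data with independent probe sets and the same spread in both groups. The members move together and spread more in the aged group, so that trial does not cover them. Log2 fold changes are given ± the standard error of limma. Symbols were brought up to date through RefSeq names (GRCr8). Symbols that a spreadsheet had turned into dates were left out. The array's annotation was not given in the sources used here, and the number of arrays limits the precision.

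The members, the gene lists and the tests were chosen with earlier results of these data known. Named genes were the 10 largest increases among genes that passed without overlap (no member fell), the 5 brightest and 5 dimmest, 7 genes named for their roles and, per list, the 3 largest changes; genes that did not pass and those named for place in the ribosome were added after their values were seen. Some genes that the rule names are not reported here. Groupings by place in the ribosome or by human disease were also made then. Alternatives covered scaling, dim probe sets, probe set choice, variance moderation, left-out arrays and the replicate block.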

Additional observations from a re-analysis of the deposited data

Results flagged for a closer look

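An animal far from the other 4 of its group, by Dixon's test at 95%, was found in 6 of 62 group and gene combinations examined. For independent combinations chance gives about 1 in 20. The genes share all arrays and move together, so the count cannot be compared with that rate. In aged animals, replicate 1 was the lowest in each case: its log2 intensity was 11.81 for Rpl13 (others 12.18 to 12.29), 13.00 for Rplp2 (13.21 to 13.27) and 11.94 for Rpl29 (12.13 to 12.18). In young animals, replicate 3 was the highest for Rps27a (10.51, others 10.27 to 10.33) and for Rpl41 (13.55, others 13.41 to 13.44), and replicate 5 was the lowest for Rplp1 (12.41, others 12.48 to 12.50).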

How the results depend on the processing

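Of 70 ribosomal protein genes, 64 rose; the count was 62 with quantile normalization, 65 with median centring, 65 of 69 with only the brighter part of the probe sets, 63 with trend and robust moderation, 61 to 65 without single arrays and 53 without both replacement arrays, with 0 lower in each of these settings. With the replicate number as a block, 61 rose; the block took the calls of Rpl30, Rplp1 and Rps29 and changed no other call of a member. Replicate numbers did not pair the animals: deviations of animals with the same number correlated between -0.117 and 0.0267, and 1 of 5 aged arrays correlated best with its own number. Medians of the family lay between 0.40 and 0.51 in these settings, and with probe sets of a plain name, chosen after seeing the data, 17 of 22 genes rose (median 0.48). The difference of subunit medians, 0.04, was 0.00 to 0.05 without single arrays (0.00 without aged replicate 4) and -0.01 without the replacement arrays; the cause was not tested. Relative to the family median, 4 to 7 genes were higher and 5 to 11 lower without single arrays. For 28 named genes over 17 settings, 453 of 475 values kept their side of the threshold, 15 lost it, 7 gained it and 0 reversed. No detection measure came with the values, so signal over background could not be given.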
